A study of Mus musculus with 15 samples.

Results

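Cultured mouse microglia stimulated for 24 h with transforming growth factor beta (TGFb, 50 ng/ml) were compared with the same kind of cells left untreated. The comparison used 9 of the 15 libraries of the series, 3 from TGFb-stimulated cells and 6 from untreated cells, chosen by the stimulation named in the labels. Stimuli of the same length with other agents served as side comparisons, namely interleukin 4 (IL4, 100 U/ml, 3 libraries) and lipopolysaccharide with interferon gamma (LPS+IFNg, 500 and 20 ng/ml, 3 libraries). All groups consisted of ESdM, which are microglia differentiated in vitro from C57BL/6-ATCC embryonic stem cells and kept in N2 medium, so the cells had no brain environment in any group. RNA was measured by sequencing, and every one of the 11201 genes in the deposited table belonged to the comparison, of which 11138 reached a value of 10 in at least 3 libraries and were tested.

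TGFb is a secreted cytokine that is released from a latent complex, often by integrins that contain the alpha v chain. It binds a pair of kinase receptors, TGFBR2 and TGFBR1, which phosphorylate SMAD2 and SMAD3, and these enter the nucleus with SMAD4 and bind DNA that carries short CAGAC boxes. In the mouse brain, TGFb signalling is known to be required for the adult microglial expression programme, and microglia lose much of that programme in ordinary culture.

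The values are normalised read counts, that is, reads divided by a factor for each library, and a value of 1 is a floor that stands for 0 to 2 reads. Recovered reads summed to 3715535 to 13403411 in the TGFb libraries and to 2682564 to 18676181 in the untreated libraries. The 10 genes with the highest values took 9.03 to 9.1% of the summed values in the TGFb libraries and 6.27 to 6.55% in the untreated libraries. No library of these groups was a duplicate of another, and the chi-square of recovered reads per degree of freedom was 1.59 to 2.17 between TGFb libraries and 1.42 to 2.94 between untreated libraries. Replicate 3 of LPS+IFNg differed from the rest of its group, and the comparison with LPS+IFNg was also made without it. That replicate also entered the spread used for the calls against untreated, since 1 fit covered all 15 libraries. Differences below are in log2(value + 1), TGFb minus untreated unless another group is named, and are followed by a standard error (SE) where it is given, and N-fold values are ratios of group means. A gene was said to rise or fall when limma gave a Benjamini-Hochberg adjusted p below 0.05 over all genes tested. Positions are those of RefSeq on GRCm38.p6. Whether replicate libraries were made from separate cultures is not stated in the labels, and the p-values thus reflect library-to-library spread that may be technical.

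TGFb changed a large share of the transcriptome by small amounts and a small share by large amounts. In all, 5290 of 11138 genes were called (47.5%), 2686 higher (24.1%) and 2604 lower (23.4%). Of these, 415 were at least 2-fold higher (3.73% of the genes tested) and 148 were at least 2-fold lower (1.33%). The TGFb and untreated libraries did not overlap in 5165 genes (46.4%). That share is the background for every statement below that the groups did not overlap. The shares called higher (24.1%) and lower (23.4%) are the background for every list count below. The median log2 difference over all genes was 0.01. When every library was scaled to the same total instead, that median moved by -0.08, and 2029 genes were called higher and 3343 lower, so that 37.8% of calls were higher in place of 50.8%. In bulk libraries such as these, fewer cells of a type and less RNA per cell cannot be told apart.

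**Figure D1:**
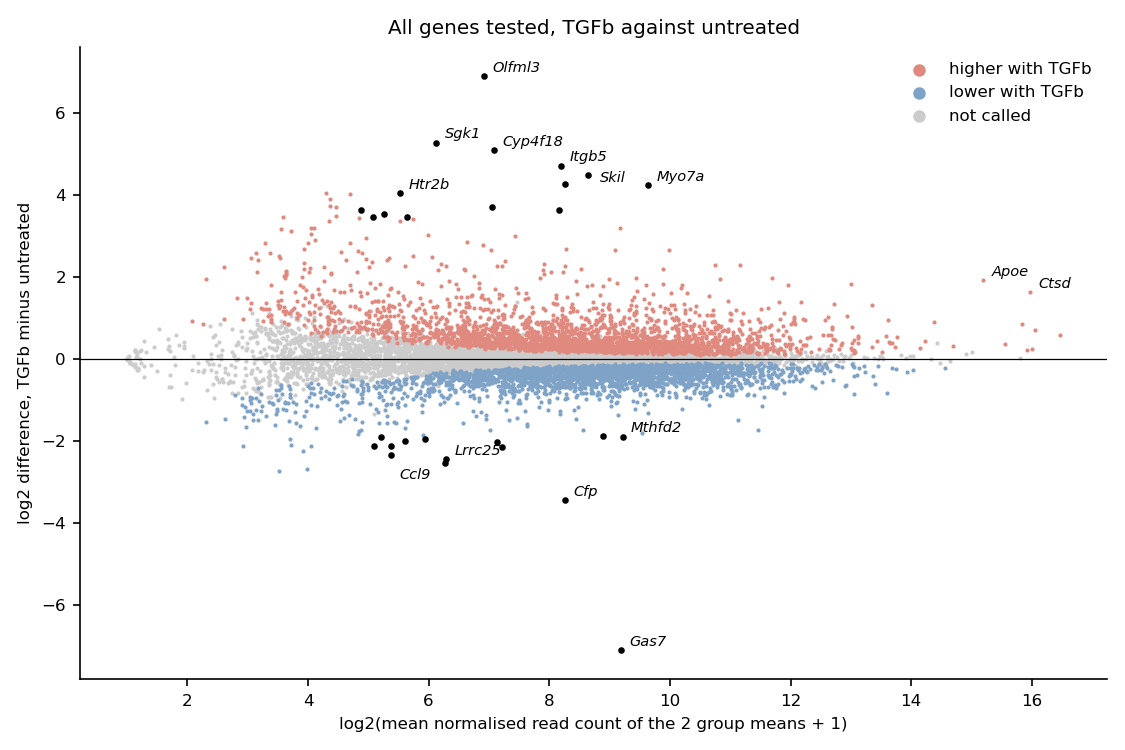
Log2 difference, TGFb minus untreated, of each gene tested against the log2 of its mean normalised read count over both group means. Red points were called higher with TGFb, blue points lower and grey points not called, and black points mark the 14 highest and 14 lowest genes chosen by rule. Olfml3 lies at 6.90 and Gas7 at -7.10, both beyond the rest of the genes drawn in black.

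The 14 genes that rose most by the ranking included genes for surface, secreted and signalling proteins. On both sides the ranking admitted only called genes whose TGFb and untreated libraries did not overlap. Separation of the groups in ranked genes was thus set by that rule. Olfml3 (chromosome 3, 103735394 to 103738001), a secreted olfactomedin-like glycoprotein used as a marker of microglia, read 235, 263 and 221 in the TGFb libraries, against 1 to 1.08 (median 1) in the untreated libraries. It was thus near absent without TGFb, with 1 recovered read in the 6 untreated libraries together, against 867 in the 3 TGFb libraries, a depth-adjusted ratio of 1.39e+03 (95% exact Poisson interval 249 to 5.5e+04, counting error only). With the untreated reads set to the 3 that the floor allows, the ratio was 463 (158 to 2.25e+03), and the fitted difference was 6.90 (SE 0.32, limma adjusted p = 5.58e-12). Sgk1 (chromosome 10, 21882184 to 21999903), a serine/threonine kinase, read 131, 117 and 156 with TGFb, against 1 to 5.6 (median 2.28) untreated (log2 difference 5.27, SE 0.47, limma adjusted p = 3.54e-08). Cyp4f18 (chromosome 8, 71988482 to 72009668), a cytochrome P450 that hydroxylates leukotriene B4 in the mouse, read 256, 284 and 247 with TGFb, against 5.39 to 8.41 (median 6.65) untreated, a 38.5-fold difference (limma adjusted p = 2.05e-11). Myo7a (chromosome 7, 98051054 to 98119522), an unconventional myosin, read 1516, 1511 and 1507 with TGFb, against 66.2 to 89.1 (median 81.8) untreated (log2 difference 4.23, SE 0.11, limma adjusted p = 2.1e-15). That the libraries of the groups lay apart in all 4 genes follows from the rule of the ranking.

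Further genes at this end of the ranking were the serotonin receptor gene Htr2b (85.4 ± 5.15 with TGFb and 4.5 ± 2 untreated, SD, n = 3 and 6) and the serine protease gene Prss46 (244 ± 12.3 with TGFb and 18.3 ± 4.04 untreated). Cd93, a transmembrane glycoprotein of myeloid and endothelial cells, averaged 53.2 ± 9.21 with TGFb and 3.69 ± 2.13 untreated. Fam46c, which encodes a poly(A) polymerase, averaged 530 ± 50 with TGFb and 42.2 ± 8.29 untreated. These 4 differences ran from 3.64 to 4.04 with limma adjusted p-values from 1.42e-10 to 2.48e-07. Others of the 14 highest were Itgb5, Skil, Gpr56, Snai1 and Apoc1, which are described with their groups.

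At the lower end, Gas7 (chromosome 11, 67453257 to 67688992), which encodes a protein that binds membranes and actin, read 8.71, 4.27 and 11.1 in the TGFb libraries, against 1095 to 1191 (median 1178) in the untreated libraries. It fell 145-fold (log2 difference -7.10, SE 0.16, limma adjusted p = 3.84e-16), and no other gene of the ranking fell by more than 3.44 on the log2 scale. Cfp (chromosome X, 20925454 to 20931555), the complement regulator properdin, read 45.9, 57.6 and 49.5 with TGFb, against 509 to 617 (median 558) untreated (log2 difference -3.44, SE 0.09, limma adjusted p = 2.1e-15). Gas7 and Cfp were thus high in every untreated library and low in every TGFb library. Lrrc25, a leucine-rich repeat membrane protein, averaged 23.1 ± 2.1 with TGFb and 131 ± 6.8 untreated. Aoah, the hydrolase that removes acyl chains from lipopolysaccharide, averaged 12.6 ± 2.06 with TGFb and 68.1 ± 10.1 untreated, a 5.41-fold fall. Ptpn22, a tyrosine phosphatase of immune cells, averaged 54.3 ± 8.61 with TGFb and 242 ± 27.2 untreated. The transporter gene Slc10a6, the G protein regulator gene Rgs18 and the pyrimidine catabolic enzyme gene Dpys fell by 2.13, 2.12 and 1.94 on the log2 scale, and the axon guidance gene Draxin averaged 14.6 ± 1.16 with TGFb and 57.6 ± 7.47 untreated. The limma adjusted p-values of these genes ran from 3.84e-16 to 8.08e-07. That their untreated libraries all lay above every TGFb library was a condition of the ranking. The remaining members of the 14 lowest, Ccl9, Cd74, Cth, Mthfd2 and Asns, are described below.

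Among the genes of TGFb signalling, the cytokine gene Tgfb1, 2 genes for its activation and 7 receptor genes rose after 24 h of TGFb, and several inhibitors of the pathway rose by larger amounts. Of 8 genes for TGFb ligands and their activation, 3 rose, 1 fell and 4 were not called. Tgfb1 itself (chromosome 7, 25687002 to 25705077) read 1343, 1304 and 1384 with TGFb, against 800 to 1017 (median 949) untreated (log2 difference 0.54, SE 0.09, limma adjusted p = 3.67e-05). Furin, the protease that cleaves the TGFb precursor, read 3785, 4036 and 3619 with TGFb, against 691 to 845 (median 816) untreated (log2 difference 2.28, SE 0.19, limma adjusted p = 1.63e-08). Itgav, the integrin alpha v chain that takes part in freeing latent TGFb, read 2299, 2439 and 2408 with TGFb, against 785 to 875 (median 803) untreated (log2 difference 1.54, SE 0.12, limma adjusted p = 9.87e-09). The libraries of the groups did not overlap in these 3 genes. Gdf15, a distant member of the family, fell to 91.8 ± 26.6 with TGFb, against 219 ± 59.6 untreated (SD, n = 3 and 6, limma adjusted p = 0.000604). Nrros, which holds latent TGFb on the surface of microglia, was not called (1360 ± 139 with TGFb and 1505 ± 29.4 untreated), and neither were Itgb1, Ltbp4 and Gdf11 (limma adjusted p from 0.0661 to 0.95). In a fit over the 9 libraries of these groups alone Nrros was called lower (limma adjusted p = 0.0148).

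Of 11 receptor genes, 7 rose and 1 fell. Tgfbr1, the type I receptor, read 730, 711 and 720 with TGFb, against 413 to 492 (median 458) untreated. Tgfbr2, the type II receptor, read 798, 770 and 779 with TGFb, against 513 to 573 (median 534) untreated. Both rose without overlap between groups, by 0.66 (SE 0.06) and 0.54 (SE 0.07), with limma adjusted p-values of 1.17e-07 and 4.61e-06. The co-receptor gene Eng averaged 48.2 ± 6.35 with TGFb and 23.7 ± 6.08 untreated, and Cd109, a co-receptor that restrains TGFb signalling, averaged 170 ± 8.75 with TGFb and 99.9 ± 8.01 untreated. The activin and BMP type I receptor gene Acvr1 rose by 0.77, the BMP type II receptor gene Bmpr2 by 0.34 and Acvr1b by 0.27. Bmpr1a fell by 0.17 on the log2 scale. The call of Acvr1b was lost without TGFb replicate 2, and those of Eng and Bmpr1a were lost without the 3 libraries of lowest depth.

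None of the SMADs that carry the signal was called higher. Smad3 read 142, 120 and 126 with TGFb, against 142 to 193 (median 164) untreated, and was lower by 0.37 on the log2 scale (SE 0.11, limma adjusted p = 0.00884), with 1 TGFb library at the level of the lowest untreated library. Its call was lost without TGFb replicate 2, and its limma adjusted p reached 0.124 among the alternatives tried. Smad2 read 323, 329 and 321 with TGFb, against 347 to 427 (median 378) untreated (log2 difference -0.24, SE 0.07, limma adjusted p = 0.00514). Smad4 (388 ± 38 with TGFb and 415 ± 38 untreated), Smad1 and Smad5 were not called. Of the 13 SMADs and partners, the transcription factor genes Runx1 and Runx3, which act with SMADs, rose by 0.46 and 0.36, and Trim33, which binds phosphorylated SMAD2 and SMAD3, rose by 0.28. Together 4 rose, 3 fell and 6 were not called, shares of 30.8% higher and 23.1% lower beside 24.1% and 23.4% over all genes.

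Inhibitors that TGFb signalling is known to induce were among the genes of the pathway that rose. Skil (chromosome 3, 31095058 to 31122923), which encodes the SMAD repressor SnoN, read 761, 770 and 747 with TGFb, against 25.2 to 43 (median 33.7) untreated, a 22.4-fold rise (log2 difference 4.47, SE 0.15, limma adjusted p = 7.69e-14). Smad7, the inhibitory SMAD of the TGFb branch, read 211, 198 and 213 with TGFb, against 24.3 to 35.8 (median 28.8) untreated (log2 difference 2.78, SE 0.20, limma adjusted p = 2.45e-09). Ski, a paralogue of Skil that also represses SMAD target genes, read 1544, 1545 and 1580 with TGFb, against 395 to 568 (median 538) untreated (log2 difference 1.61, SE 0.10, limma adjusted p = 2.52e-10). Each of these 3 genes was several-fold higher in every TGFb library than in any untreated library. Smad6, the inhibitory SMAD of the BMP branch, read 33.1, 29.9 and 45.6 with TGFb, against 1 to 1.89 (median 1.04) untreated, or 141 against 3 recovered reads, a depth-adjusted ratio of 75.3 (95% exact Poisson interval 25.3 to 370), or of 45.2 if every floor value hid as many reads as it could, 5 in all. Tgif1, a repressor that binds SMADs, rose by 0.76, and the ubiquitin ligase genes Smurf2 and Smurf1 rose by 0.38 and 0.34. Of the 14 feedback genes, 7 rose and 2 fell, namely Usp15 (-0.27), a deubiquitinase that sustains the receptor, and Sik1 (-0.36), whose libraries overlapped and whose call was lost without TGFb replicate 2. Smad6 reached the minimum value only through the TGFb libraries and was thus selected for being high there. Without it 6 of 13 feedback genes rose and 2 fell, with a median of 0.18. The decoy receptor gene Bambi was at 415 ± 3.15 with TGFb and 368 ± 30.4 untreated and was not called in the fit of all libraries (limma adjusted p = 0.344).

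**Figure D2:**
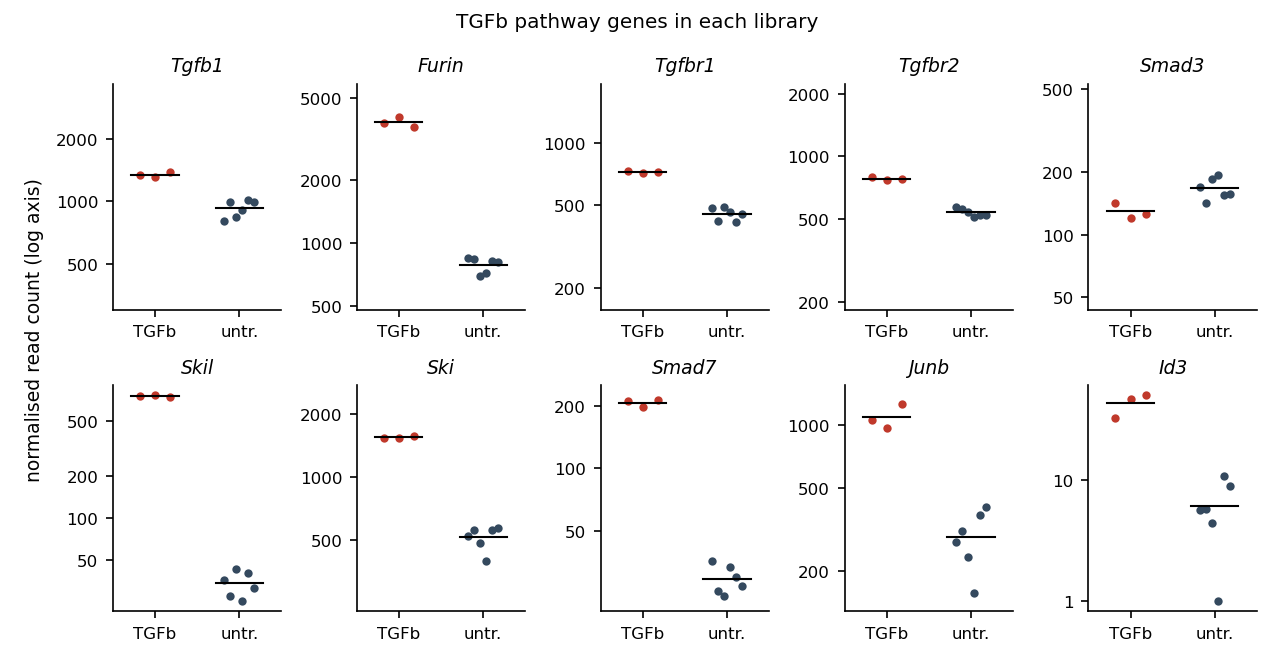
Normalised read counts, on log axes, of 10 genes of the TGFb pathway in each library, with TGFb libraries (red, n = 3) left of untreated libraries (dark, n = 6). Horizontal lines are group means. Skil, Ski, Smad7 and Junb lie higher in all TGFb libraries, while Smad3 lies lower with 1 TGFb library level with the lowest untreated one.

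Of 35 listed target genes of TGFb in many cell types, 17 had values and were tested, and 15 of these rose and none fell, with a median of 0.91, beside 24.1% higher and a median of 0.01 over all genes tested. The members of this list were chosen with earlier results of these data known, and their direction in other cell types was not compared. Such counts describe only the genes that reached the minimum value. A gene that reaches it through the TGFb libraries alone was selected for being high there, and over all genes 103 were such, of which 72 were called higher. In the list of TGFb targets Snai1 and Spsb1 were such genes, and without them, a count added after the data were seen, 13 of 15 rose, with a median of 0.90. The lists of feedback inhibitors, matrix, lipid handling, transcription factor, AP-1 and oligodendrocyte marker genes each held 1 such gene and the list of purinergic and chemokine receptors 2. Snai1, a repressor known from epithelial to mesenchymal transition, read 54, 68.3 and 58.6 with TGFb, against 1 to 8.63 (median 5.2) untreated (log2 difference 3.46, SE 0.46, limma adjusted p = 6.23e-06). Junb, an AP-1 subunit, read 1059, 967 and 1270 with TGFb, against 157 to 403 (median 293) untreated (log2 difference 1.97, SE 0.25, limma adjusted p = 3.34e-06). In both genes the lowest TGFb library was above the highest untreated library, which the ranking required of Snai1. Id3, Id2 and Id1, which block basic helix-loop-helix transcription factors, rose by 2.82, 1.47 and 1.15, and the call of Id1 was lost without TGFb replicate 1 and without TGFb replicate 3. Bhlhe40, a repressor of the helix-loop-helix family, averaged 5499 ± 141 with TGFb and 2956 ± 153 untreated. Spsb1, which targets the type II receptor for degradation, averaged 23.5 ± 1.88 with TGFb and 4.88 ± 2.25 untreated, and the growth regulator gene Myc averaged 48.1 ± 4.92 with TGFb and 20.9 ± 5.7 untreated. The actin crosslinker gene Actn1 rose by 0.72. The exceptions were Cdkn1a, the cyclin kinase inhibitor p21 (2051 ± 76.1 with TGFb and 2121 ± 123 untreated), and Vegfa (539 ± 24 with TGFb and 487 ± 22.9 untreated), which were not called. Vegfa was called higher in 6 alternatives, among them the 9 libraries alone (0.15, limma adjusted p = 0.0368) and edgeR's quasi-likelihood test (0.16, adjusted p = 0.0407).

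The 250 bases before the start of Id3 are shown for the short SMAD box, since Id3 rose by 2.82 and its promoter holds that box on both strands. Capitals mark CAGAC and its reverse complement, the sequence is RefSeq's for GRCm38.p6 on the plus strand at chr4:136143572-136143821, and the matches begin 167 and 68 bases before the start.
Id3: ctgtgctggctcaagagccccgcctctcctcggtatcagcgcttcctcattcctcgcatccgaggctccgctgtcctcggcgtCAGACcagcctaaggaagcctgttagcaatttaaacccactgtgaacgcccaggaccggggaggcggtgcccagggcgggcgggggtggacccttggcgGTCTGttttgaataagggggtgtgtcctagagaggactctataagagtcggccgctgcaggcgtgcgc
The box was found on either strand in 45% of the 8962 tested genes with a promoter in the RefSeq table, in 47.9% of those that rose and in 42.4% of those that fell. In the list of TGFb targets, which holds Id3, it was in 4 of 11 genes with a promoter (36.4%). For the feedback inhibitors this was 5 of 9 (55.6%). Among genes that changed at least 2-fold these shares were 53.3% for 332 that rose and 44.9% for 107 that fell. The SMAD palindrome GTCTAGAC occurred in 0.365% of genes that rose, in 0.143% of genes that fell and in 0.257% of all. The GC-rich SMAD site GGCGCC occurred in 18.8% of genes that rose and in 20.8% of genes that fell, against 19.7% of all. The AP-1 site TGANTCA was in 10.2% of the genes that rose and in 12.1% of the genes that fell at least 2-fold, against 5.41% of all, and the PU.1 core GAGGAA was in 33.4% of those that rose and 35.5% of those that fell at least 2-fold, against 25.9% of all. Some matches of one motif can lie over another, and a match describes letters in this window only.

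Of 54 listed genes that are known in the mouse to need TGFb signalling in microglia, 31 had values and were tested, of which 19 rose, 2 fell and 10 were not called, with a median of 0.52. Olfml3, Gpr56, Cx3cr1 and Gpr34 reached the minimum value only through the TGFb libraries, and without them 16 of 27 rose and 2 fell, with a median of 0.47. Itgb5 (chromosome 16, 33829665 to 33949338), the integrin beta 5 chain that pairs with alpha v, read 552, 572 and 562 with TGFb, against 11.2 to 28.3 (median 21.8) untreated (log2 difference 4.71, SE 0.30, limma adjusted p = 4.04e-10). Gpr56 (chromosome 8, 94974756 to 95014208), an adhesion receptor of microglia, read 68.5, 74.7 and 63.1 with TGFb, against 2.21 to 7.55 (median 5.68) untreated (log2 difference 3.52, SE 0.33, limma adjusted p = 7.62e-08). Tmem119 (chromosome 5, 113793729 to 113800396), a membrane protein that marks microglia among brain macrophages, read 83, 74.7 and 89.2 with TGFb, against 3.77 to 11.2 (median 7.77) untreated (log2 difference 3.37, SE 0.37, limma adjusted p = 5.62e-07). Together with Olfml3, these genes were low in every untreated library and at least several-fold higher in every TGFb library. The fractalkine receptor gene Cx3cr1 (chromosome 9, 120048683 to 120068296) read 37.7, 47 and 33.8 with TGFb, while the untreated libraries gave 1 in 3 of 6 and 1.56, 5.39 and 5.66 in the others (log2 difference 3.70, SE 0.52, limma adjusted p = 1.05e-05). Rnase4, a secreted ribonuclease gene that shares its first exons with Ang, so that their reads cannot be told apart there, averaged 1792 ± 30.3 with TGFb and 544 ± 36.4 untreated (log2 difference 1.72, SE 0.13, limma adjusted p = 5.07e-09). Mertk, the receptor for apoptotic cells, averaged 251 ± 20.7 with TGFb and 143 ± 24.2 untreated (limma adjusted p = 0.00587).

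Smaller rises in this list were those of Sox4 (1.37), a transcription factor gene that TGFb induces in other cells, of the P-selectin ligand gene Selplg (0.93), of the Golgi protein gene Golm1 (0.90) and of Lpcat2 (0.90), a lysophospholipid acyltransferase gene. Mef2a, a transcription factor gene, rose by 0.74, the G protein regulator gene Rgs10 by 0.65, the cystatin C gene Cst3 by 0.59 and Bin1, a membrane-bending adaptor, by 0.33. Lrba and Abi3 both rose by 0.47, and Cmtm6, whose libraries overlapped, rose by 0.29 and lost its call without TGFb replicate 2. Besides Smad3, which is also on this list, Rapgef5, a guanine nucleotide exchange factor gene, fell, with 91.7, 64 and 62.5 in the TGFb libraries, against 124 to 159 (median 144) untreated (log2 difference -0.96, SE 0.12, limma adjusted p = 3.37e-06). Mef2c, a transcription factor gene of microglia, was at 420 ± 16 with TGFb and 436 ± 42.1 untreated and was not called. Csf1r, the receptor that keeps microglia alive, was at 3181 ± 58.1 with TGFb and 2790 ± 140 untreated. Its groups did not overlap, yet it was not called over all libraries (limma adjusted p = 0.286) and was called over the 9 libraries alone (limma adjusted p = 0.00057). Gas6, Gpr34, Entpd1, Gal3st4, Arhgap5, Hpgds, Adora3 and Bco2 were not called either (differences from -0.21 to 0.52). P2ry12, Sall1, Siglech, Fcrls and C1qa were not analysed here.

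**Figure D3:**
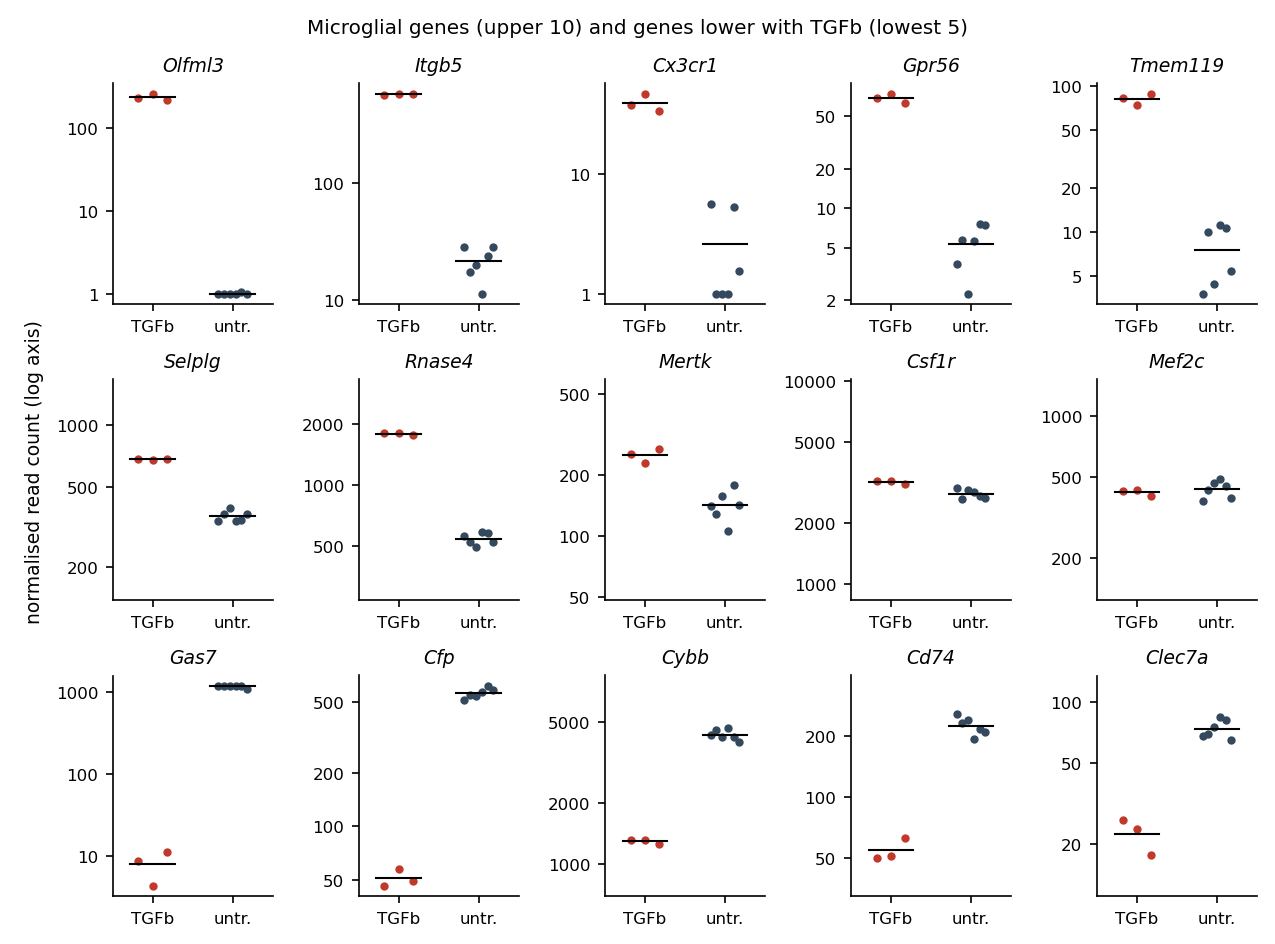
Normalised read counts, on log axes, of 10 microglial genes and of 5 genes that fell, in each library, with TGFb libraries (red, n = 3) left of untreated libraries (dark, n = 6). Horizontal lines are group means. Olfml3, Itgb5, Cx3cr1, Gpr56 and Tmem119 are low in every untreated library, Csf1r and Mef2c lie close in both groups, and Gas7 and Cfp are low in every TGFb library.

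The label of the cells was checked against cell type markers. Of 17 listed microglia and macrophage markers 12 had values and were tested, and P2ry12, Sall1, Siglech, Fcrls and C1qa were not among them. Of these 12 markers 7 rose and none fell, and their summed value was 26863 to 28633 in the TGFb libraries and 20054 to 21672 in the untreated libraries. Olfml3, Cx3cr1 and Gpr34 reached the minimum value only through the TGFb libraries, and without them 5 of 9 markers rose. The count of 7 became 4 without TGFb replicate 1 or without TGFb replicate 2. In each case Olfml3 and Cx3cr1 no longer reached the minimum value in enough libraries to be tested, and Itgam lost its call. Ptprc, Aif1 and Tyrobp, which mark myeloid cells generally, were not called over all libraries. Aif1 was low in both groups, at 12.8 to 36.4 with TGFb and 17.3 to 34 untreated. For Ptprc (1930 ± 33.2 with TGFb and 1711 ± 85.7 untreated) the groups did not overlap, and it was called higher over the 9 libraries alone (0.17, limma adjusted p = 0.00182). Itgam rose by 0.17 with overlapping libraries and lost its call without TGFb replicate 1 or 2. Of the markers of other cells, none of 11 neuron genes and 1 of 12 embryonic stem cell genes, Klf4, was measured, and Klf4 was not called. Some markers of other cells rose, namely Cspg4 of oligodendrocyte precursors (28.4 ± 1.01 with TGFb and 2.62 ± 2.1 untreated), Vwf of endothelium (732 ± 58.7 with TGFb and 213 ± 20.4 untreated), S100a8 of neutrophils (21.6 ± 3.97 with TGFb and 7.21 ± 1.86 untreated), Aldoc of astrocytes (1721 ± 102 with TGFb and 1471 ± 62 untreated) and Ctsk of osteoclasts (75386 ± 2085 with TGFb and 41552 ± 1962 untreated). Other measured markers of those cells, Mbp, Cnp, Egfl7, Aldh1l1, Slc1a2, Zbtb46 and Ocstamp, were not called, nor were Fbln1 of fibroblasts and Lck of lymphocytes. Cspg4 reached the minimum value only through the TGFb libraries and was thus selected for being high there. The summed endothelial markers were 730 to 845 with TGFb and 210 to 281 untreated, and the summed oligodendrocyte markers 232 to 252 with TGFb and 172 to 242 untreated. Their part in the changes of other genes was not tested. The ribosomal RNA gene Rn45s, which reads how much ribosomal RNA was left in a library, was at 25098 ± 4349 with TGFb and 19243 ± 3380 untreated and was not called over all libraries (limma adjusted p = 0.111). It was called higher over the 9 libraries alone (0.39, limma adjusted p = 0.00497) and without the LPS+IFNg libraries (limma adjusted p = 0.0161), and its part in the changes of other genes was not tested.

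Of 44 genes for lysosomal proteins and cathepsins, 30 rose, 2 fell and 12 were not called, with a median of 0.33, which are shares of 68.2% and 4.55% beside 24.1% and 23.4% over all genes. With libraries scaled to the same total 5 fell. Their summed value was 363090 to 381668 with TGFb and 232438 to 249040 untreated. Ctsd (chromosome 7, 142375910 to 142387827), the aspartic protease cathepsin D, read 97307, 100053 and 94795 with TGFb, against 30263 to 32979 (median 31309) untreated (log2 difference 1.63, SE 0.06, limma adjusted p = 1.58e-13). Ctss, the cysteine protease cathepsin S, read 4612, 4956 and 4697 with TGFb, against 2573 to 2981 (median 2682) untreated (log2 difference 0.81, SE 0.07, limma adjusted p = 6.67e-08). Npc2, which carries cholesterol out of the lysosome, rose by 0.51, and Ctsk, cathepsin K, by 0.86. Lamp1, a membrane protein of the lysosome, fell by 0.15 on the log2 scale and lost its call without TGFb replicate 1, and Psap, the saposin precursor, was not called (25010 ± 622 with TGFb and 26106 ± 909 untreated). The promoter of Ctsd is shown because it holds the palindrome TCACGTGA of the CLEAR element, which in other cells binds the lysosomal regulator TFEB. The sequence lies on the minus strand at chr7:142387828-142388077 and capitals mark the match, which begins 99 bases before the start.
Ctsd: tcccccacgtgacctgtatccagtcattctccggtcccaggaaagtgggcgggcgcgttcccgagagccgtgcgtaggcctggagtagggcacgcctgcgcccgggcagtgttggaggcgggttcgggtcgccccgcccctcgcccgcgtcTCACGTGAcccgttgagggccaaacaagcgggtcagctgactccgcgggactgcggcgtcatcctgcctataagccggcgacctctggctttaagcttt
The palindrome was found in 5 of 35 lysosomal genes with a promoter (14.3%), against 1.91% of all tested genes, 2.46% of those that rose and 1.71% of those that fell. Among genes that changed at least 2-fold it was in 0.904% of those that rose and 0.935% of those that fell. It was also in 2 of 13 aminoacyl-tRNA synthetase genes (15.4%), which mostly fell.

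Genes of the signature that microglia take on around lesions and plaques in the mouse split in direction. Of 22 such genes 13 rose and 4 fell, with a median of 0.38. Apoe (chromosome 7, 19696244 to 19701310), the main lipid carrier of the brain, read 59767, 56922 and 61275 with TGFb, against 13825 to 17418 (median 16031) untreated (log2 difference 1.92, SE 0.08, limma adjusted p = 2.94e-12). The tetraspanin gene Cd9 averaged 8020 ± 413 with TGFb and 4123 ± 133 untreated, and Trem2, a lipid-sensing receptor that the signature depends on, averaged 2822 ± 200 with TGFb and 1693 ± 55.1 untreated. Spp1, osteopontin, rose by 0.70, Gpnmb, a transmembrane glycoprotein, by 0.58, the metalloprotease inhibitor gene Timp2 by 0.71 and the integrin gene Itgax by 0.34. Under quantile scaling the calls of Spp1, Gpnmb and Ctsk were lost (limma adjusted p = 0.0522, 1 and 0.167). Clec7a, the beta-glucan receptor Dectin-1 and a leading member of the same signature, read 26.1, 23.5 and 17.6 with TGFb, against 64.9 to 84.1 (median 72) untreated (log2 difference -1.69, SE 0.16, limma adjusted p = 6.85e-08). The fatty acid binding protein gene Fabp5 fell by 0.57 and the galectin gene Lgals3 by 0.27 on the log2 scale, and Lgals3 lost its call without TGFb replicate 3. Tyrobp, the adaptor of TREM2, and the growth factor gene Igf1 were not called (1732 ± 66 with TGFb and 1615 ± 78.5 untreated for Igf1).

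Genes of lipid handling rose more often than they fell, and genes of cholesterol synthesis fell more often than they rose. Of 27 targets of the liver X receptors (LXR) and genes of lipid handling, 15 rose and 9 fell (median 0.29). Apoc2 reached the minimum value only through the TGFb libraries, and without it 14 of 26 rose, with a median of 0.28. The apolipoprotein gene Apoc1 read 91.1, 85.4 and 91.8 with TGFb, against 3.24 to 14 (median 8.4) untreated (log2 difference 3.45, SE 0.38, limma adjusted p = 6.28e-07), and its neighbour Apoc2 read 50.5, 44.8 and 64.4 with TGFb, against 1 to 13.2 (median 6.78) untreated (log2 difference 2.95, SE 0.47, limma adjusted p = 4.32e-05). Abcg1, a cholesterol exporter, averaged 4154 ± 47.9 with TGFb and 2362 ± 77.8 untreated, and Mylip, which degrades the LDL receptor, averaged 953 ± 70.1 with TGFb and 435 ± 23.9 untreated. Srebf1, the transcription factor gene of fatty acid synthesis, averaged 6672 ± 55.6 with TGFb and 2547 ± 217 untreated (log2 difference 1.39, SE 0.09, limma adjusted p = 4.71e-10). Lpcat3, a phospholipid acyltransferase gene, and Plin2, a lipid droplet coat gene, rose by 0.74 and 0.77. The fatty acid elongase gene Elovl6 fell to 68.5 ± 11.2 with TGFb, against 178 ± 13.2 untreated (log2 difference -1.37, SE 0.11, limma adjusted p = 1.11e-08), and Fasn, fatty acid synthase, fell by 0.39 on the log2 scale, a call that was lost when any TGFb replicate was left out. Of 23 cholesterol synthesis genes 12 fell and 1 rose, with a median of -0.29. Idi1, the isopentenyl diphosphate isomerase gene, averaged 165 ± 16.5 with TGFb and 345 ± 11.2 untreated (log2 difference -1.06, SE 0.07, limma adjusted p = 1.38e-09), and Acat2, Stard4 and Fdps fell by 0.81, 0.62 and 0.48 on the log2 scale.

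Genes of amino acid supply, many of them targets of the transcription factor ATF4, had the lowest median of the gene lists. Of 29 such genes 25 fell and 2 rose, with a median of -0.92, against 23.4% lower over all genes tested. Asns (chromosome 6, 7675165 to 7693209), asparagine synthetase, read 228, 203 and 180 with TGFb, against 707 to 824 (median 732) untreated (log2 difference -1.87, SE 0.07, limma adjusted p = 1.58e-13). Mthfd2, the mitochondrial folate enzyme, read 247, 288 and 223 with TGFb, against 900 to 973 (median 932) untreated (log2 difference -1.89, SE 0.07, limma adjusted p = 1.58e-13). Psat1, an enzyme of serine synthesis, read 1167, 1219 and 1168 with TGFb, against 3157 to 3535 (median 3313) untreated (log2 difference -1.48, SE 0.05, limma adjusted p = 2.04e-14). The highest TGFb library of each of these genes lay far below its lowest untreated library, though the ranking required no overlap of Asns and Mthfd2. Slc7a11, the cystine importer, averaged 329 ± 17.8 with TGFb and 1147 ± 73 untreated (log2 difference -1.80, SE 0.08, limma adjusted p = 3.01e-12), and Cth, which makes cysteine from cystathionine, averaged 18 ± 3.73 with TGFb and 77.2 ± 23.1 untreated. The serine enzymes Phgdh and Shmt2 fell by 0.92 and 1.21 and the arginine importer gene Slc7a1 by 1.14 on the log2 scale. Atf4 itself averaged 1407 ± 44.4 with TGFb and 2547 ± 106 untreated, and Ddit3, the stress factor CHOP, averaged 119 ± 3.87 with TGFb and 239 ± 12.7 untreated. Cebpb, which is on the list and encodes a partner of ATF4 with other roles in myeloid cells, rose to 713 ± 149 with TGFb, against 307 ± 70.1 untreated (log2 difference 1.22, SE 0.21, limma adjusted p = 0.000122).

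The enzymes that load amino acids onto tRNA fell with them. Of 20 genes for cytosolic aminoacyl-tRNA synthetases 19 fell, with a median of -0.68. Cars, the cysteine enzyme, read 338, 333 and 355 with TGFb, against 669 to 775 (median 684) untreated (log2 difference -1.02, SE 0.05, limma adjusted p = 2.37e-11). Iars, the isoleucine enzyme, read 1079, 1050 and 1071 with TGFb, against 1874 to 2024 (median 1976) untreated (log2 difference -0.88, SE 0.04, limma adjusted p = 1.44e-11). Aars, Lars and Nars fell by 0.97, 0.89 and 0.70 on the log2 scale, and Qars was not called (1781 ± 43.6 with TGFb and 1893 ± 60.8 untreated). Of 49 genes of cytosolic ribosomal proteins 11 rose and none fell, with a median of 0.07, and the share of 22.4% higher stands beside 24.1% over all genes. Their direction depended on the scaling, with 7 higher and 2 lower and a median of -0.01 when libraries were scaled to the same total, and the count of 11 became 18 over the 9 libraries alone and 4 without the 3 libraries of lowest depth. Rpl13, Rps27 and Rps20 were the members with the highest statistics among those called (0.43, 0.35 and 0.29), and near-identical copies of ribosomal protein genes make such values uncertain.

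The promoters of Asns and Slc7a11 are shown for the core of the amino acid response element, TGATGNAA, to which ATF4 binds with a C/EBP partner. Capitals mark the core on either strand. Both sequences are from the minus strand, at chr6:7693210-7693459 and at chr3:50443614-50443863. The match begins 23 bases before the start in Asns, and 66 and 47 bases before it in Slc7a11.
Asns: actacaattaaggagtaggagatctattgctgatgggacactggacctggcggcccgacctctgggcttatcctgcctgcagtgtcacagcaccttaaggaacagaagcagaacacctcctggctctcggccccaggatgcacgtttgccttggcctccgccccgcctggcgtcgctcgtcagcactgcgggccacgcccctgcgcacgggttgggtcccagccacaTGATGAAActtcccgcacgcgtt
Slc7a11: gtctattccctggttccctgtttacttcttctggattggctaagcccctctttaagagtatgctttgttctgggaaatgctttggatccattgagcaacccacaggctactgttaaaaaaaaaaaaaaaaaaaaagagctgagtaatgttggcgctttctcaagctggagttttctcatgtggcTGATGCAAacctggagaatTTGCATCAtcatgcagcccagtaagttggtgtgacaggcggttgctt
The core was found in 3 of 25 amino acid and ATF4 target genes with a promoter (12%) and in 3 of 13 tRNA synthetase genes (23.1%). It was in 2.42% of all tested genes, in 2.66% of those that fell and in 2.55% of those that rose. It was also in 11.4% of the lysosomal genes, which mostly rose.

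**Figure D4:**
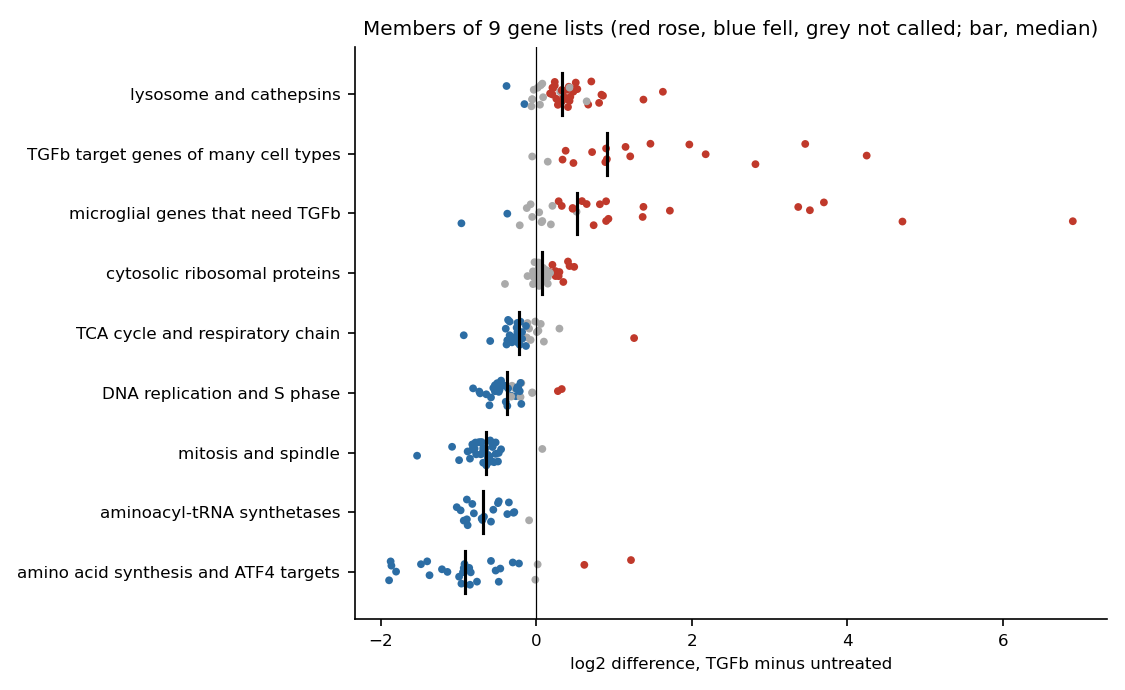
Log2 difference, TGFb minus untreated, of each tested member of 9 gene lists, with red points called higher, blue points called lower, grey points not called and a bar at the list median. Lysosomal genes lie mostly right of 0 with a median of 0.33, and amino acid, tRNA synthetase and mitosis genes lie mostly left of it with medians of -0.92, -0.68 and -0.64.

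Genes of proliferation fell almost without exception in mitosis and less uniformly in S phase. Of 38 genes of mitosis and the spindle, 37 fell and Pttg1 alone was not called, with a median of -0.64. Aurka, a kinase of the spindle poles, read 347, 352 and 356 with TGFb, against 710 to 775 (median 750) untreated (log2 difference -1.08, SE 0.05, limma adjusted p = 8.09e-12). Mki67, which encodes the proliferation marker Ki-67, read 2571, 2755 and 2657 with TGFb, against 3809 to 4057 (median 3953) untreated (log2 difference -0.57, SE 0.06, limma adjusted p = 7.04e-07). Top2a, a topoisomerase of dividing cells, read 2370, 2378 and 2327 with TGFb, against 3431 to 3662 (median 3557) untreated (log2 difference -0.59, SE 0.06, limma adjusted p = 7.06e-08). The groups did not overlap in these genes, although the differences were below 2-fold in Mki67 and Top2a. The kinesin genes Kif20a and Kif23 and the spindle factor genes Tpx2 and Incenp fell by 0.99, 0.88, 0.70 and 0.60 on the log2 scale. Of 36 genes of DNA replication and S phase 27 fell and 2 rose (median -0.37), and those that fell included the replication factor gene Mcm10 (-0.64) and the helicase subunit gene Mcm3 (-0.39). Cyclin D1, encoded by Ccnd1, fell to 880 ± 28.5 with TGFb, against 1698 ± 87.1 untreated (log2 difference -0.95, SE 0.06, limma adjusted p = 3.02e-10). Of 24 cell cycle inhibitors and p53 targets 6 rose and 8 fell, shares of 25% and 33.3% beside 24.1% and 23.4% over all genes. The count that fell was 4 or 5 without TGFb replicate 1, 2 or 3 or untreated replicate 1, 4 or 5. Those that rose included Ccng2 (1.34), an atypical cyclin of quiescent cells, the p53 target Phlda3 (1.33) and the antiproliferative gene Btg1 (0.76).

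The promoter of Cdk1, the kinase that starts mitosis, is shown for the cell cycle genes homology region, TTTGAA, which is bound by the complex that represses mitotic genes in resting cells. Cdk1 averaged 550 ± 37.5 with TGFb and 800 ± 29.9 untreated (log2 difference -0.54, SE 0.06, limma adjusted p = 2.96e-07). The sequence is from the minus strand at chr10:69352913-69353162, and capitals mark matches that begin 71 and 15 bases before the start.
Cdk1: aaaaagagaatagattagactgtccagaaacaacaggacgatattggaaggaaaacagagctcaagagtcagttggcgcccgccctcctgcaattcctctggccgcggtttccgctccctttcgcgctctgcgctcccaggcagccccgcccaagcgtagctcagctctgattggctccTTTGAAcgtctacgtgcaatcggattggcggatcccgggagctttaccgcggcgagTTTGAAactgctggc
The letters were found in 13 of 30 mitosis genes with a promoter (43.3%), against 12.8% of all tested genes, 15.7% of those that fell and 12.2% of those that rose.

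Genes of mitochondrial energy metabolism fell in most cases, and those of glycolysis changed in both directions. Of 35 genes of the tricarboxylic acid cycle and respiratory chain 24 fell and 1 rose (median -0.22). Cycs, cytochrome c, read 765, 775 and 728 with TGFb, against 1342 to 1549 (median 1453) untreated (log2 difference -0.93, SE 0.05, limma adjusted p = 1.44e-11). Citrate synthase (Cs), isocitrate dehydrogenase (Idh3a), fumarase (Fh1) and cytochrome c1 (Cyc1) fell by 0.39, 0.59, 0.36 and 0.38 on the log2 scale. Of 31 genes of glycolysis and the hypoxia response 13 rose and 7 fell (median 0.15), shares of 41.9% and 22.6% beside 24.1% and 23.4% over all genes. Slc2a1, the glucose transporter GLUT1, averaged 1541 ± 85.2 with TGFb and 834 ± 47.3 untreated (log2 difference 0.88, SE 0.05, limma adjusted p = 2.67e-10). Pfkfb3, which makes the activator of phosphofructokinase, averaged 1926 ± 76.2 with TGFb and 926 ± 49.9 untreated, and Hif1a, the hypoxia-inducible factor, averaged 1691 ± 64.4 with TGFb and 963 ± 40.2 untreated. The mitophagy genes Bnip3 and Bnip3l rose by 1.08 and 0.53. Hk3, the hexokinase of myeloid cells, fell to 1769 ± 82.8 with TGFb, against 3224 ± 146 untreated, and Ndrg1, a gene induced by hypoxia in many cells, fell to 1780 ± 162 with TGFb, against 2851 ± 189 untreated.

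Among genes of oxidative metabolism, Cybb (chromosome X, 9435252 to 9487766), the catalytic subunit of the phagocyte NADPH oxidase, read 1307, 1315 and 1251 with TGFb, against 3966 to 4674 (median 4278) untreated, and fell 3.35-fold (log2 difference -1.74, SE 0.05, limma adjusted p = 2.07e-14). Its cytosolic partner gene Ncf1 rose to 1641 ± 58.9 with TGFb, against 1087 ± 31.1 untreated (log2 difference 0.59, SE 0.04, limma adjusted p = 1.89e-09). Thus the subunits did not move together. Among the targets of the antioxidant regulator NRF2, 3 genes that fell were glutathione reductase (Gsr) at 442 ± 19 with TGFb and 896 ± 62.5 untreated, thioredoxin reductase (Txnrd1) at 2481 ± 35.8 with TGFb and 3555 ± 151 untreated, and peroxiredoxin 1 (Prdx1) at 6090 ± 82.2 with TGFb and 9432 ± 497 untreated. Prdx5, another peroxiredoxin, rose by 0.85. Of the 31 genes of the list, which holds NADPH oxidase subunits as well as NRF2 targets, 18 fell and 7 rose, with a median of -0.23.

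Of 11 chemokine ligand genes 5 fell and 1 rose, with a median of -0.73. Ccl9 (chromosome 11, 83572917 to 83578636) read 21.5, 27.7 and 16.9 with TGFb, against 118 to 137 (median 131) untreated (log2 difference -2.53, SE 0.13, limma adjusted p = 3.93e-11). The monocyte attractant gene Ccl2 averaged 25.9 ± 8.64 with TGFb and 55.1 ± 12 untreated, and Pf4, platelet factor 4, averaged 125 ± 8.35 with TGFb and 208 ± 18.3 untreated. Ccl3 and Ccl4, which attract myeloid cells and lymphocytes, fell by 0.83 and 1.12 on the log2 scale, and their annotated spans overlap, so reads there cannot be told apart. Cxcl16, the ligand of CXCR6, rose to 48.8, 51.2 and 61.2 with TGFb, against 2.8 to 18.9 (median 10.4) untreated (log2 difference 2.35, SE 0.38, limma adjusted p = 5.09e-05). Among 14 genes for inflammatory cytokines and enzymes, 5 were called higher and 3 lower, shares of 35.7% and 21.4% beside 24.1% and 23.4% over all genes. Tnf rose to 259 ± 11.2 with TGFb, against 176 ± 12 untreated, and Ptges, prostaglandin E synthase, to 38.7 ± 4.23 with TGFb, against 11.6 ± 2.55 untreated. Il1b was near the floor with TGFb (1.16, 1 and 1.95), against 1.89 to 9.93 (median 6.51) untreated (log2 difference -1.54, SE 0.37, limma adjusted p = 0.00212), and its libraries overlapped. Nos2, inducible nitric oxide synthase, was at 4.55 ± 2.42 with TGFb and 4.78 ± 3.36 untreated and was not called.

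Of 11 complement genes 4 rose and 2 fell, shares of 36.4% and 18.2% beside 24.1% and 23.4% over all genes. Cfp was 1 of the 2 that fell. C1qc, a chain of the C1q recognition molecule, read 29.6, 21.3 and 16.3 with TGFb, against 1 to 3.24 (median 1.27) untreated (log2 difference 3.11, SE 0.44, limma adjusted p = 1.06e-05). C1qb, a further chain, read 6.97, 8.54 and 5.21 with TGFb, against 1 to 1.1 (median 1) untreated, which is 24 against 2 recovered reads and a depth-adjusted ratio of 19.2 (95% exact Poisson interval 4.78 to 168). The floor could hide further reads, and with 4 untreated reads the ratio would be 9.62 (3.3 to 38.1). It was not called by edgeR on recovered reads or with a pseudocount of 10. The protease gene C1ra rose by 0.81 and the anaphylatoxin receptor gene C3ar1 by 0.42. C3 was at 1499 ± 52 with TGFb and 1280 ± 66.7 untreated. It was not called over all libraries (limma adjusted p = 0.0876) and was called over the 9 libraries alone (limma adjusted p = 0.000283). The median of the list was 0.09 and turned to -0.16 under quantile scaling.

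Of 21 Toll-like receptors and adaptors 4 rose and 3 fell, shares of 19% and 14.3% beside 24.1% and 23.4% over all genes, with a median of 0.01 that was -0.06 with libraries scaled to the same total. The count that fell was 5 over the 9 libraries alone, and 6 under the same-total scaling, with array weights or without the LPS+IFNg libraries. Tlr2, the receptor for bacterial lipoproteins, read 1814, 1889 and 1798 with TGFb, against 475 to 572 (median 532) untreated (log2 difference 1.81, SE 0.09, limma adjusted p = 7.6e-12). Its partner Tlr1 read 96.4, 113 and 93.7 with TGFb, against 190 to 233 (median 211) untreated (log2 difference -1.06, SE 0.10, limma adjusted p = 4.91e-08). Tlr4, the lipopolysaccharide receptor, averaged 325 ± 22.6 with TGFb and 565 ± 25.1 untreated, and its co-receptor gene Cd14 averaged 451 ± 19.3 with TGFb and 541 ± 36 untreated. Tlr2 and Tlr1 thus moved in opposite directions in every library, and Tlr4 and Cd14 were both lower. Of 29 C-type lectins and phagocytic receptors 10 rose and 12 fell (median -0.11). The mannose receptor gene Mrc1 read 2632, 2830 and 2739 with TGFb, against 4521 to 5268 (median 4814) untreated (log2 difference -0.82, SE 0.05, limma adjusted p = 3.39e-10), and Clec10a, a galactose-type lectin, averaged 61.8 ± 3.81 with TGFb and 150 ± 5.45 untreated. Lrp1, an endocytic receptor, averaged 27737 ± 1090 with TGFb and 14878 ± 340 untreated, and Scarb2 and the inhibitory Fc receptor gene Fcgr2b rose by 1.19 and 1.15.

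For antigen presentation, Cd74, the invariant chain of MHC class II, read 49.9, 51.2 and 63.1 with TGFb, against 193 to 257 (median 223) untreated (log2 difference -2.02, SE 0.19, limma adjusted p = 7.57e-08). The peptide-exchange subunit gene H2-DMb1 rose to 118 ± 7.66 with TGFb, against 75.6 ± 10.5 untreated (limma adjusted p = 0.00288). Of 12 listed genes of class II presentation 6 were tested, of which 2 rose, 1 fell and 3 were not called. Those that rose were H2-DMb1 and Ctss, which is also counted with the lysosomal genes. Cd74 was the 1 that fell and did not stand for the list. Of 19 class I genes 6 rose and 3 fell, shares of 31.6% and 15.8% beside 24.1% and 23.4% over all genes. The count that fell was 1 without TGFb replicate 2 or without the 3 libraries of lowest depth. Over the 9 libraries alone and without the LPS+IFNg libraries 10 rose and 5 fell, and 5 fell under same-total and quantile scaling. The chaperone genes Calr and Pdia3 rose by 0.54 and 0.56, and the proteasome subunit gene Psmb10 fell by 0.44 on the log2 scale. Interferon-stimulated genes gave 9 higher and 4 lower of 36, shares of 25% and 11.1% beside 24.1% and 23.4% over all genes. Their median was 0.08 and was -0.03 under quantile scaling. Ifitm3, an antiviral membrane protein, fell to 89.4, 98.2 and 98.9 with TGFb, against 265 to 324 (median 299) untreated (log2 difference -1.63, SE 0.09, limma adjusted p = 9.17e-11).

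Of 20 genes of NF-kB signalling and its feedback 9 rose and 3 fell (median 0.27). The inhibitor genes Nfkbie and Nfkbia averaged 206 ± 19.2 and 453 ± 25.5 with TGFb, against 97.1 ± 9.46 and 305 ± 24.2 untreated, and the feedback deubiquitinase gene Tnfaip3 rose by 0.73. Tnip3, a binding partner of that deubiquitinase, fell to 114 ± 13.7 with TGFb, against 240 ± 23.3 untreated. Of 30 AP-1, EGR and MAP kinase feedback genes 12 rose and 2 fell (median 0.22). Without the member that reached the minimum value only through the TGFb libraries, 11 of 29 rose, with a median of 0.21. Fos, an AP-1 subunit gene, read 488, 504 and 462 with TGFb, against 96.2 to 126 (median 110) untreated (log2 difference 2.11, SE 0.26, limma adjusted p = 2.31e-06), and Egr2, a zinc finger factor gene, read 176, 171 and 164 with TGFb, against 32 to 54.7 (median 41.9) untreated (log2 difference 2.01, SE 0.25, limma adjusted p = 3.12e-06). The libraries of these genes were well apart. Fosl2, another AP-1 subunit gene, rose by 1.23 and the phosphatase gene Dusp4 by 0.51.

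Of 32 myeloid transcription factor genes 15 rose and 4 fell, with a median of 0.18, and the count that fell was 2 without TGFb replicate 1 or 3 or without untreated replicate 4 or 6. Cebpa, a regulator of myeloid differentiation, read 993, 920 and 997 with TGFb, against 330 to 394 (median 358) untreated (log2 difference 1.43, SE 0.14, limma adjusted p = 1.07e-07). Ets1, an ETS family factor, averaged 18.4 ± 4.66 with TGFb and 2.47 ± 1.08 untreated. It reached the minimum value only through the TGFb libraries, and without it 14 of 31 genes rose, with a median of 0.17. Spi1, which encodes PU.1, was not called (1523 ± 39.2 with TGFb and 1503 ± 67.2 untreated). Irf8 was higher in every TGFb library (856, 847 and 946, against 546 to 669 (median 591) untreated) and was not called over all libraries (limma adjusted p = 0.131), but was called over the 9 libraries alone (limma adjusted p = 2.3e-07).

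Receptors for cytokines and growth factors rose in 16 of 25 cases and fell in 3, with a median of 0.33. Il4ra, the interleukin 4 receptor chain, read 439, 395 and 428 with TGFb, against 83.9 to 120 (median 98.2) untreated (log2 difference 2.11, SE 0.16, limma adjusted p = 6.58e-09). Flt1, a receptor for VEGF, read 12536, 12916 and 13011 with TGFb, against 3360 to 3808 (median 3624) untreated (log2 difference 1.83, SE 0.05, limma adjusted p = 2.1e-15). Il17ra, the interleukin 17 receptor chain, averaged 464 ± 7.68 with TGFb and 164 ± 16.2 untreated, and the TNF receptor gene Tnfrsf1b and the GM-CSF receptor gene Csf2ra rose by 0.89 and 1.14. Of 19 purinergic, chemokine and related receptors 6 rose (31.6%) and 2 fell (10.5%), and none fell without TGFb replicate 2. Over all genes 24.1% rose and 23.4% fell. Without Cx3cr1 and Gpr34, which reached the minimum value only through the TGFb libraries, 5 of 17 rose, with a median of 0.01. P2ry6, the UDP receptor linked to microglial phagocytosis, read 125, 102 and 107 with TGFb, against 7.19 to 17 (median 14.7) untreated (log2 difference 3.02, SE 0.28, limma adjusted p = 7.06e-08). The chemokine receptor gene Cxcr4 read 1205, 1244 and 1179 with TGFb, against 291 to 398 (median 344) untreated (log2 difference 1.80, SE 0.11, limma adjusted p = 1.97e-10). Both were higher in all TGFb libraries, and S1pr2 and Gpr84 rose by 0.59 and 1.36. Genes of alternative activation, a state that IL4 induces, were divided, with 8 of 20 higher and 4 lower and a median of 0.08 that was -0.08 under quantile scaling. Arg1, arginase 1, had 0 recovered reads in the TGFb libraries and 4 in the untreated libraries, too few for a fold.

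Integrin genes also changed in both directions. Besides Itgb5 and Itgav, the fibronectin receptor gene Itga5 read 5389, 5468 and 4917 with TGFb, against 1295 to 1392 (median 1337) untreated (log2 difference 1.97, SE 0.05, limma adjusted p = 2.1e-15). Itgb7, the beta 7 chain, read 226, 194 and 234 with TGFb, against 425 to 542 (median 494) untreated (log2 difference -1.17, SE 0.07, limma adjusted p = 3.52e-10), and its partner gene Itga4 averaged 1781 ± 73.1 with TGFb and 3232 ± 151 untreated (log2 difference -0.86, SE 0.08, limma adjusted p = 5.16e-08). Itga5, Itgav and Itgb5 were thus higher and Itga4 and Itgb7 lower. Of 20 integrin and adhesion genes 9 rose and 5 fell, and the median of -0.01 was 0.00 with TMM scaling. Of 25 genes of matrix and matrix proteases 13 rose and 5 fell (median 0.17), shares of 52% and 20% beside 24.1% and 23.4% over all genes. Without the member that reached the minimum value only through the TGFb libraries, 12 of 24 rose, with a median of 0.14. The collagen gene Col4a1 averaged 171 ± 21.3 with TGFb and 60.4 ± 10.3 untreated, Plau, urokinase, averaged 14910 ± 803 with TGFb and 6014 ± 250 untreated, and Adam8, a metalloprotease, fell to 527 ± 22.7 with TGFb, against 773 ± 26.1 untreated.

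**Figure D5:**
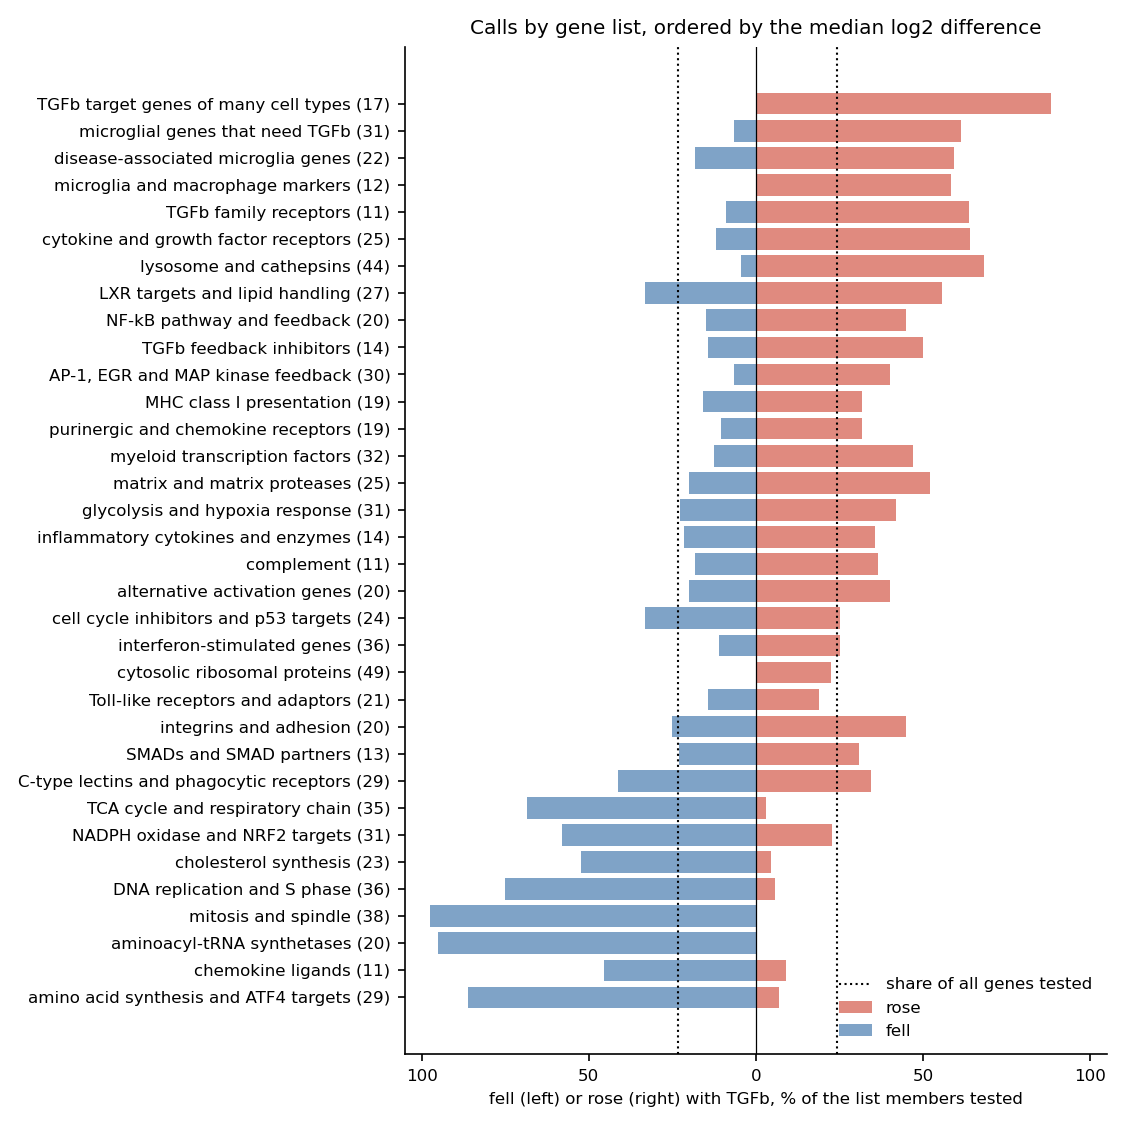
Share of the tested members of each gene list with at least 10 tested genes that rose (right) or fell (left) with TGFb, with the number tested in brackets and lists ordered by their median log2 difference. Dotted lines mark the shares over all genes tested, 24.1% higher and 23.4% lower. TGFb target genes reach 88.2% higher, and mitosis genes reach 97.4% lower.

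TGFb was also set against IL4 and against LPS+IFNg. These comparisons use the same TGFb libraries, so they are given side by side and not as independent support. Against IL4, 2118 genes were higher with TGFb (19%) and 2309 lower (20.7%). Against LPS+IFNg, 3425 were higher (30.8%) and 3550 lower (31.9%), and without LPS+IFNg replicate 3 these were 3355 and 3361. Of 286 named genes with values in this comparison, 230 were called. Without that replicate 13 of them lost their call and 14 gained one, and no called gene changed sign.

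Olfml3 averaged 239 with TGFb, 1.49 with IL4, 1.8 with LPS+IFNg and 1.01 untreated. Itgb5 averaged 562 with TGFb, 17.6 with IL4, 7.48 with LPS+IFNg and 21.4 untreated. Tmem119 averaged 82.3 with TGFb, 2.03 with IL4, 1.86 with LPS+IFNg and 7.62 untreated. TGFb was the group with the highest mean in these microglial genes, and the differences from IL4 (6.63, 5.00 and 4.83) and from LPS+IFNg (6.53, 6.13 and 4.96) were called. Of the 31 tested microglial genes that need TGFb, among them the 4 that reached the minimum value only through the TGFb libraries, 19 were higher and 1 lower than with IL4, and 21 were higher and 3 lower than with LPS+IFNg. The median differences were 0.54 and 1.04. Mertk was an exception, at 251 with TGFb, 261 with IL4 and 143 untreated, and its difference from IL4 was not called (-0.05, limma adjusted p = 0.899).

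The general TGFb targets that were tested gave 14 higher and 1 lower of 17 against IL4, and 9 higher and 6 lower against LPS+IFNg. These 17 include Snai1 and Spsb1, which reached the minimum value only through the TGFb libraries and were thus selected for being high there. Junb averaged 1099 with TGFb, 439 with IL4, 758 with LPS+IFNg and 291 untreated, and its difference from LPS+IFNg was not called (0.53, limma adjusted p = 0.118). Id3 averaged 43.6 with TGFb, 7.53 with IL4, 149 with LPS+IFNg and 6.1 untreated. Id3 was thus higher with LPS+IFNg than with TGFb (-1.76, limma adjusted p = 0.00218). Gas7 averaged 8.01 with TGFb, 1208 with IL4, 1520 with LPS+IFNg and 1164 untreated, and was lower with TGFb than in either stimulated group. Fam46c was also high with LPS+IFNg, at 530 with TGFb and 733 with LPS+IFNg (-0.33, limma adjusted p = 0.301), and the difference was 0.11 without LPS+IFNg replicate 3.

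Of the 29 amino acid genes 22 were lower and 1 higher with TGFb than with IL4, and 26 were lower and 2 higher than with LPS+IFNg. Asns averaged 204 with TGFb, 597 with IL4, 1886 with LPS+IFNg and 744 untreated. Its difference from LPS+IFNg thus also holds a higher mean with LPS+IFNg than untreated. All 38 mitosis genes were lower with TGFb than with LPS+IFNg, and 22 were lower than with IL4. Of 44 lysosomal genes 19 were higher and 8 lower than with IL4, and 24 were higher and 10 lower than with LPS+IFNg. All 36 interferon-stimulated genes and all 20 NF-kB genes were lower with TGFb than with LPS+IFNg, as was Cybb, at 1291 with TGFb, 2483 with IL4, 32446 with LPS+IFNg and 4329 untreated. Cd74 averaged 54.8 with TGFb, 1525 with IL4, 2509 with LPS+IFNg and 224 untreated, so its mean was lowest with TGFb. Mrc1 averaged 2734 with TGFb, 13044 with IL4, 1230 with LPS+IFNg and 4830 untreated, and Arg1 averaged 72.2 with IL4 and stayed at the floor with TGFb.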

How the data were processed

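The deposited table holds a signal per gene and library that the authors made, as the values show, by dividing reads by 1 factor per library and setting results below 1 to 1. The submitters' processing notes name TopHat2 2.0.3, Partek 6.6, R 3.0.2, DESeq2 and the build mm10, without their roles, and the annotation, strand setting and counting rule are not given in the sources used here. RNA was isolated with TRIZOL and libraries came from an Illumina TruSeq kit, per the labels' protocols. Overlapping genes and near-identical copies could therefore share reads. Up to 2000 reads, 100% of the values above the floor came out as whole reads within 0.01 reads.

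Libraries were assigned to TGFb (n = 3), IL4 (n = 3), LPS+IFNg (n = 3) and untreated (n = 6) from the labels. Log2(value + 1) was fitted with limma 3.58.1 in R 4.3.3, with a mean-variance trend, over all 15 libraries and the 11138 genes at 10 or more in at least 3 libraries. P-values were adjusted over these genes by Benjamini-Hochberg, with a threshold of 0.05. edgeR 4.0.16 and DESeq2 1.42.0 on recovered reads, other scalings, filters and pseudocounts, and libraries left out were alternatives. With counts simulated for the TGFb and untreated comparison, 30, 70, 90 and 94% of 50 genes each changed 1.25-, 1.5-, 2- and 4-fold were called, with 8 false calls over 11138 genes. No other genes were changed in that simulation, while 47.5% were called in the data. Its shares and false calls therefore do not estimate those of the real comparison. Of the 11201 genes, 11161 matched the RefSeq gene table of GRCm38.p6, and promoters are its 250 bases before a gene's start. Motifs were searched on both strands. Tables and plots used Python 3.11.15, pandas 2.3.3, scipy 1.17.1 and matplotlib 3.10.9.

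The comparison, the gene lists and their members were chosen with earlier results of these data known. Named genes are the 14 highest and 14 lowest called genes by log2 difference with a mean of 50 or more in the higher group and no overlap, without predicted, RIKEN, ribosomal protein and small RNA genes. Added to these are all members of the TGFb pathway, microglial and marker lists, up to 5 called members of each other list by moderated statistic, and members said not to be called. Atf4, Ddit3, Cebpb, Mki67, Top2a, Cdk1, Apoc2, Gpnmb, Spp1, Clec7a, Lgals3, Fabp5, Itgax, Hif1a, Ndrg1, Gsr, Prdx1, Lamp1, Phgdh, Myc, Id1, Id2, Elovl6, Fasn, Mylip, Tnfaip3, Nfkbia, Itga4, Ccl2, Spsb1 and Rn45s lie outside that rule and were chosen after their values were seen. The searches for TGATGNAA, TTTGAA and TCACGTGA were also added after the values were seen. Some genes that the rule names are not reported here.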

Additional observations from a re-analysis of the deposited data

Results flagged for a closer look

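In 12 of the 288 genes followed, 1 untreated library lay apart from the other 5 by more than Dixon's 95% limit for 6 samples, which chance alone passes in about 1 of 20 groups. The measure is the gap to the nearest library over the range of the group, and the TGFb group was too small for it. Replicate 4, the library of lowest depth, was the outlying one in 6 genes. It read 339 against 420 to 439 in the others for Smad4 (0.81), 235 against 184 to 203 for Zfyve9 (0.64), 2253 against 2408 to 2492 for Gas6 (0.65) and 686 against 813 to 862 for Prdx5 (0.72). It also read 8.41 against 2.88 to 4.41 for Htr2b (0.72) and 30.8 against 13.3 to 18.9 for Gal3st4 (0.68), values that rest on 3 and 11 reads.

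Replicate 6 was lowest for Gas7, at 1095 against 1161 to 1191 (0.69), and for Mcm3, at 1443 against 1496 to 1527 (0.63). Replicate 5 was lowest for Idi1, at 324 against 346 to 354 (0.75), and held the single read of Olfml3 in the group (1.00). Replicate 1 was highest for Cars, at 775 against 669 to 692 (0.78), and replicate 3 for Cspg4, at 6.62 against 1 to 2.88 (0.67). For 9 of these 12 genes the TGFb and untreated groups did not overlap, beside 46.4% of all genes tested. Of the 9, Olfml3, Htr2b and Gas7 were named by a rule that required no overlap.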

How the results depend on the processing

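No paired analysis was possible because the labels give no replicate numbers that groups share. Of the 287 genes followed over 23 alternatives, 233 were called, 214 of these kept call and direction in every alternative that gave a value, 19 lost the call in at least 1, and no called gene changed sign. Of the genes not called, 18 were called in some alternative. Counts of genes called higher ran from 2204 to 2629 and lower from 2220 to 2550 when 1 library was left out, and at least 2-fold higher from 355 to 428 and lower from 129 to 167. edgeR called 2774 higher and 2507 lower, and DESeq2 2598 and 2477. Array weights gave 3399 higher and 3239 lower, and a fit over the 9 libraries alone gave 2997 and 2838. Without the LPS+IFNg libraries 2994 were higher and 2868 lower. Without the 3 libraries of lowest depth (untreated replicates 4 and 1, TGFb replicate 2) the counts were 2074 and 2098. The 148 genes at least 2-fold lower became 95 with a minimum value of 50 and 78 with a pseudocount of 10, which by its construction shrinks differences of low genes. Aif1 was at -0.05, not called, and at 0.59 without the 3 libraries of lowest depth (limma adjusted p = 0.0382), and the cause was not tested. Of 72 list counts, 17 moved by more than 1.5 times in at least 1 alternative. Without the 3 libraries of lowest depth, the lysosomal genes that fell went to 0 in place of 2, and the matrix genes to 2 in place of 5. Array weights gave 25 ribosomal protein genes higher and 11 microglia markers higher in place of 11 and 7. The counts against IL4 and LPS+IFNg stayed within 1.5 times of those given under the alternatives added after seeing the data. Depth limits genes at the floor, of which 221 had at least 1 floor value in the 9 libraries, since their differences depend on a few reads.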

Other observations

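Outside the gene lists, a few genes were almost unread without TGFb, and they were chosen after their values were seen. Wisp1 (chromosome 15, 66891369 to 66923201), a secreted matricellular protein of the CCN family, read 21.5, 21.3 and 20.2 in the TGFb libraries, against 1, the floor, in all 6 untreated libraries. It had 78 recovered reads in the TGFb libraries and no value above the floor in the untreated libraries. The floor could hide 2 untreated reads in all, and with these the depth-adjusted ratio would be 62.5 (95% exact Poisson interval 16.7 to 525, counting error only). Its mean was 21 with TGFb, 1 with IL4, 1.04 with LPS+IFNg and 1 untreated. Tfr2 (chromosome 5, 137569822 to 137588081), a transferrin receptor of iron sensing, read 23.8, 14.9 and 21.5 in the TGFb libraries, against 1 to 2.8 in the untreated libraries. The reads were 81 with TGFb and 3 untreated, a depth-adjusted ratio of 43.3 (95% exact Poisson interval 14.3 to 214, counting error only). Counted against 5 untreated reads, since 2 could lie under the floor, the ratio would be 26 (10.7 to 82.1). The mean of Tfr2 was 1.14 with IL4 and 1 with LPS+IFNg. H2-M2, a class Ib MHC gene, had 37 reads with TGFb and 2 untreated, a ratio of 29.7 (7.65 to 254), or 14.8 (5.33 to 57.3) with 4 untreated reads. Its mean was 9.14 with TGFb, 2.17 with IL4, 113 with LPS+IFNg and 1.09 untreated. In these genes every TGFb library lay above every untreated library, at low values. That follows from choosing them for few untreated reads, and 46.4% of all genes tested did not overlap. Wisp1 and Tfr2 also reached the minimum value only through the TGFb libraries.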
